A study of Mus musculus with 8 samples.

Results

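The genes described here are 40 members of the unfolded protein response and of the ATF4 program, out of 24454 genes listed for each library. They are given by a list of gene names, with 20 endoplasmic reticulum (ER) genes, called the ER branch here, and 20 ATF4-linked genes, called the ATF4 branch. All 40 were found by their Entrez number. RNA came from 4T1 cells, a mouse mammary carcinoma line, in 8 libraries that differ by the hairpin they carry. The 3 groups were shCTRL, with a non-targeting hairpin (3 libraries), shMEK5, with a hairpin against the kinase MEK5 (2 libraries), and shERK5, with a hairpin against its substrate ERK5 (3 libraries). Each knockdown rests on 1 hairpin per target, going by the titles. Cells of all 3 groups had been infected with lentivirus and selected with puromycin, and grew in serum-containing medium with glutamine. The labels name no ER stressor and no withdrawal of amino acids. Whether the cells were under other stress is not stated.

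The ER folds secreted and membrane proteins, and 3 sensors in its membrane report on unfolded protein: ATF6, IRE1 (encoded by Ern1) and PERK (Eif2ak3). IRE1 splices the mRNA of Xbp1 into the form that encodes an active transcription factor. ATF6 is itself released as one, and both raise chaperones and degradation factors. PERK phosphorylates the translation factor eIF2, as other kinases do when amino acids or heme run short. This favours translation of ATF4, a transcription factor for amino acid synthesis, amino acid uptake and stress effectors. Because ATF4 is controlled largely at translation, its mRNA level is not a readout of its activity. Spliced and unspliced Xbp1 were counted together in these gene-level values.

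Promoter sequence is shown first, since the branches are defined in part by the factors that bind there. RefSeq promoters of GRCm38.p6, from 250 bases before to 50 bases after an annotated start site, were in the table used for 36 of the 40 members. Those of Atf6, Hyou1, Manf and Slc7a5 were not in it and were not searched. The ER stress response element (ERSE), which reads CCAAT, any 9 bases, then CCACG, was searched on both strands. It was found in 7 of 17 ER branch genes (41.2%) and in 0 of 19 ATF4 branch genes. Of the 27025 genes with a promoter in the table, 0.137% held it, and of all 32851 promoters 0.119%. The 7 were Hspa5, Hsp90b1 with 2 matches, Calr, Canx, Creld2, Dnajc3 and Pdia6. The shorter ERSE-II, ATTGG, any 1 base, CCACG, was found in Herpud1 alone among the members and in 0.0365% of all promoters. The unfolded protein response element TGACGTGG was found in 0 members and in 0.676% of all promoters. The element TGATGNAA is an amino acid response element to which ATF4 binds with a C/EBP partner. It was found in 6 of 19 ATF4 branch genes (31.6%), in Herpud1 of the ER branch and in 4.51% of all genes with a promoter. Its holders in the ATF4 branch were Asns, Chac1, Pycr1, Slc7a11 with 2 matches, Trib3, where the match lies after the start site, and Vldlr. These matches are descriptions of the letters, and a window without a match says nothing of a factor's binding.

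The ERSE matches are printed here because the chaperones that carry them are followed one by one below. Capitals mark the fixed letters of the match, each sequence runs 5′ to 3′ on the strand of the gene, and a match on the opposite strand reads CGTGG, 9 bases, ATTGG.
Calr (chr8:84847065-84847103, minus strand): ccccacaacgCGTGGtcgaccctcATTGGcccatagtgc
Canx (chr11:50325790-50325828, minus strand): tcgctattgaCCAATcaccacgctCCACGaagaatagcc
Creld2 (chr15:88819510-88819548, plus strand): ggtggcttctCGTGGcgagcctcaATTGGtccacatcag
Dnajc3 (chr14:118937817-118937855, plus strand): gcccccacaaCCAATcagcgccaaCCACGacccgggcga
Hsp90b1, far match (chr10:86705628-86705666, minus strand): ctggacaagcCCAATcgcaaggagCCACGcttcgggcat
Hsp90b1, near match (chr10:86705523-86705561, minus strand): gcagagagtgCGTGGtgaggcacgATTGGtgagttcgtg
Pdia6 (chr12:17266481-17266519, plus strand): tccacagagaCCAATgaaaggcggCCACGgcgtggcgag

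For Hspa5, which encodes BiP, the most studied target of this response, the 250 bases before the start site are given whole, with the exact match in capitals.
Hspa5 (chr2:34771840-34772089, plus strand): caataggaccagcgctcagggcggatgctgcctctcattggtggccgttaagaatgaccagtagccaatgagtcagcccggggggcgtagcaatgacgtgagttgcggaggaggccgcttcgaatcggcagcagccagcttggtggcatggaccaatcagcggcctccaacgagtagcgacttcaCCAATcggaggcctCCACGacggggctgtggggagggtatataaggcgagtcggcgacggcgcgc

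The amino acid response element matches follow, because the genes that hold them moved in different directions. Capitals mark the fixed letters of TGATGNAA, or of its reverse complement. Slc7a11 is shown with both of its matches in 1 stretch.
Asns (chr6:7693215-7693242, minus strand): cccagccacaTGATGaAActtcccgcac
Chac1 (chr2:119351039-119351066, plus strand): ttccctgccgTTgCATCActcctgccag
Pycr1 (chr11:120643834-120643861, minus strand): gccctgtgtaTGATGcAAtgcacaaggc
Slc7a11 (chr3:50443643-50443689, minus strand): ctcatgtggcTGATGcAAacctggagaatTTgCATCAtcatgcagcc
Trib3 (chr2:152344029-152344056, minus strand): tagctcaggtTTaCATCAgccgggcggg
Vldlr (chr19:27216810-27216837, plus strand): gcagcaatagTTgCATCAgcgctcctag
Herpud1 (chr8:94386307-94386334, plus strand): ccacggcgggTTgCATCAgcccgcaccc

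**Figure D1:**
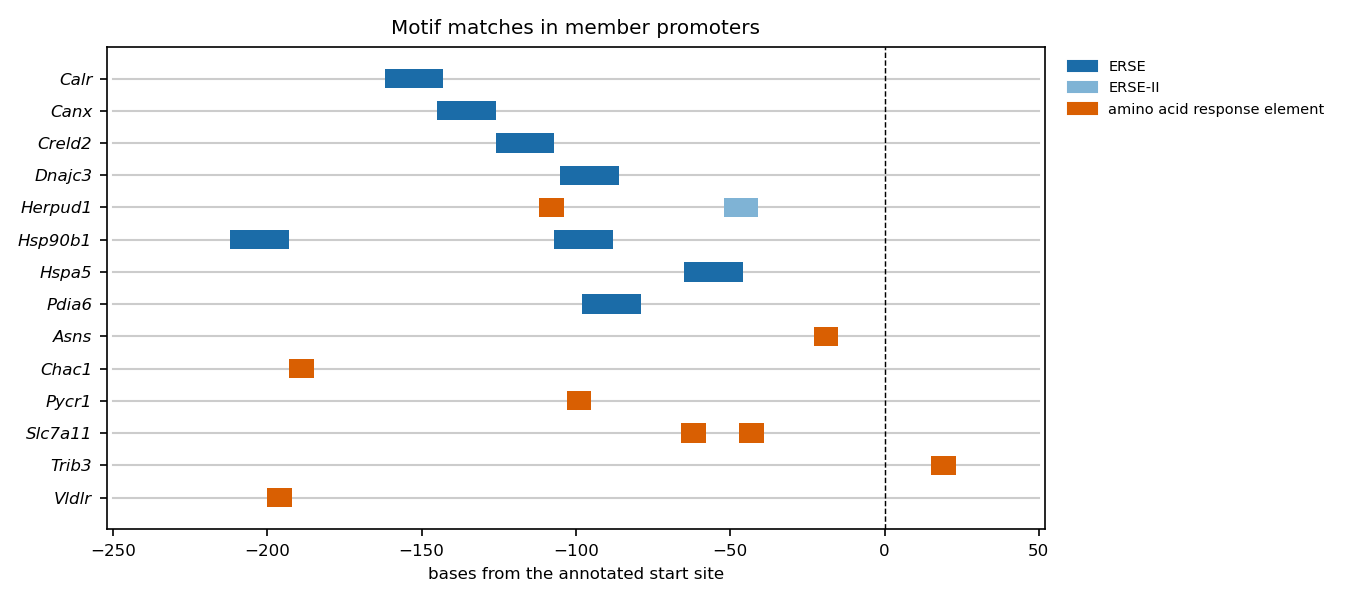
Position of each motif match in the promoters of the members that hold one, in bases from the annotated start site (dashed line at 0). Blue bars are ERSE and ERSE-II matches and orange bars are amino acid response element matches; the ERSE matches lie between 212 and 47 bases before the start site (-212 to -47), and only the Trib3 match (15 to 22) lies after it.

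Values are CPM, the reads of a gene scaled to a library total of 1000000. Between 41397315 and 53714288 reads per library were assigned to genes. A fold change is a difference of group means on the log2(CPM + 1) scale, given with its standard error (± SE). Genes were called at a Benjamini-Hochberg adjusted p under 0.05 over 11623 tested genes (limma). The labels do not say that replicates came from separate cultures, so these p-values measure the spread between libraries, which may be technical. Map2k5, the gene of MEK5, was at 35.2, 37.0 and 36.8 CPM in shCTRL, 14.1 and 14.4 in shMEK5 and 36.1, 36.8 and 37.1 in shERK5. Mapk7, the gene of ERK5, was at 25.6, 28.6 and 26.1 CPM in shCTRL, 20.4 and 18.7 in shMEK5 and 6.59, 6.33 and 6.66 in shERK5. Both targets were thus low in the libraries labelled with their hairpin, and Mapk7 was also lower in shMEK5 than in shCTRL (log2 fold change -0.44 ± 0.08, adjusted p = 9.23e-04). All 6 epithelial markers were present, with sums of 1700 to 1882 CPM in shCTRL, 1275 to 1340 in shMEK5 and 1641 to 1686 in shERK5. The 6 did not move together. The abundant keratins Krt8 and Krt18 fell in both knockdowns (both -0.52 in shERK5), while Cldn4 (2.04 ± 0.05), Cdh1 (1.56 ± 0.06), Epcam (1.06 ± 0.09) and Krt19 (1.02 ± 0.05) rose in shERK5. Cldn4, Cdh1 and Krt19 rose less in shMEK5 (0.17 ± 0.06, 0.56 ± 0.07 and 0.39 ± 0.06). The part of these marker changes in the results was not tested. Dcn, Thy1, Adgre1, Cd3e and Kdr, markers of fibroblasts, leukocytes and endothelium, were at 0 in every library. The 6 fibroblast markers summed to 31.6 to 47.3 CPM in shCTRL, 34.4 to 35.9 in shMEK5 and 22.9 to 28.2 in shERK5. That sum is nearly all Pdgfra, which fell in shERK5 (-0.48 ± 0.14, adjusted p = 0.0180), and the other 5 reached at most 0.653 CPM in any library. The leukocyte sum, 1.88 to 3.67 CPM, is nearly all Cd68, which was lower in shMEK5 (-0.43 ± 0.10, adjusted p = 0.00617), and the endothelial sum reached at most 0.362 CPM, with Pecam1 above 0 in every library. In such bulk libraries, fewer cells of a type and less RNA per cell cannot be told apart. The comparisons of shMEK5 and of shERK5 with shCTRL share the same 3 shCTRL libraries, so their values are set side by side and their likeness is not counted as a result.

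In shERK5 the ER branch was mostly higher than in shCTRL. Of 20 members, all tested, 13 rose, 1 fell and 6 did not pass the test, with a median log2 fold change of 0.25. Of all tested genes 32.0% were called up and 31.3% down, with a median of 0.00. In shMEK5 the same 20 genes were split, with 5 up, 4 down and 11 not called and a median of 0.03. The shares of all tested genes were 23.1% up and 25.6% down, with a median of -0.02. The count of 5 fell to 2 and the count of 4 fell to 2 when shMEK5 replicate 2 was left out. Tested directly, shERK5 was above shMEK5 in 12 of the 20 and below it in 0, with a median of 0.27. Here 22.0% of all tested genes were higher and 17.4% lower in shERK5, with a median of 0.02. Under the other settings tried, between 13 and 14 members rose in shERK5 against shCTRL, and between 10 and 14 were higher in shERK5 than in shMEK5.

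All 3 sensors and Xbp1 rose in shERK5, where 32.0% of all tested genes were called up. Xbp1 was at 119.9, 124 and 123 CPM in shCTRL, 131 and 143 in shMEK5 and 225, 233 and 242 in shERK5. The 3 shERK5 libraries lay far above the others, at 191% of the shCTRL mean (log2 fold change 0.93 ± 0.05, adjusted p = 2.31e-07), the largest fitted rise among the 39 tested members in this comparison. Against shMEK5, Xbp1 was higher in shERK5 by 0.77 ± 0.06 (adjusted p = 4.68e-06). The smaller rise in shMEK5 (0.16 ± 0.06, adjusted p = 0.0321) was lost when shMEK5 replicate 2 was left out (0.10, adjusted p = 0.292) or any 1 of the shCTRL libraries (adjusted p of 0.0512 to 0.0678).

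Ern1, the gene of the kinase and nuclease IRE1, was at 72.4, 67.3 and 71.6 CPM in shCTRL, 54.2 and 49.6 in shMEK5 and 80.4, 86.3 and 89.5 in shERK5. Its 3 groups did not overlap, with shMEK5 lowest and shERK5 highest. It fell in shMEK5 (-0.43 ± 0.06, adjusted p = 3.43e-04) and rose in shERK5 (0.27 ± 0.06, adjusted p = 0.00192). The difference between the knockdowns was 0.71 ± 0.06 (adjusted p = 2.03e-05). Eif2ak3, the gene of PERK, was at 23.0, 24.0 and 22.7 CPM in shCTRL, 25.4 and 24.6 in shMEK5 and 30.7, 30.3 and 31.8 in shERK5. All shERK5 libraries were above all others (0.40 ± 0.05, adjusted p = 1.03e-04 against shCTRL). In shMEK5 it did not pass the test (0.10 ± 0.06, adjusted p = 0.187). Atf6 was at 439.5, 419.9 and 443 CPM in shCTRL, 422 and 434 in shMEK5 and 493, 525 and 509 in shERK5. It was again highest in the 3 shERK5 libraries, with a log2 fold change of 0.23 ± 0.04 (adjusted p = 9.86e-04) in shERK5 and -0.02 ± 0.05 (adjusted p = 0.746) in shMEK5.

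**Figure D2:**
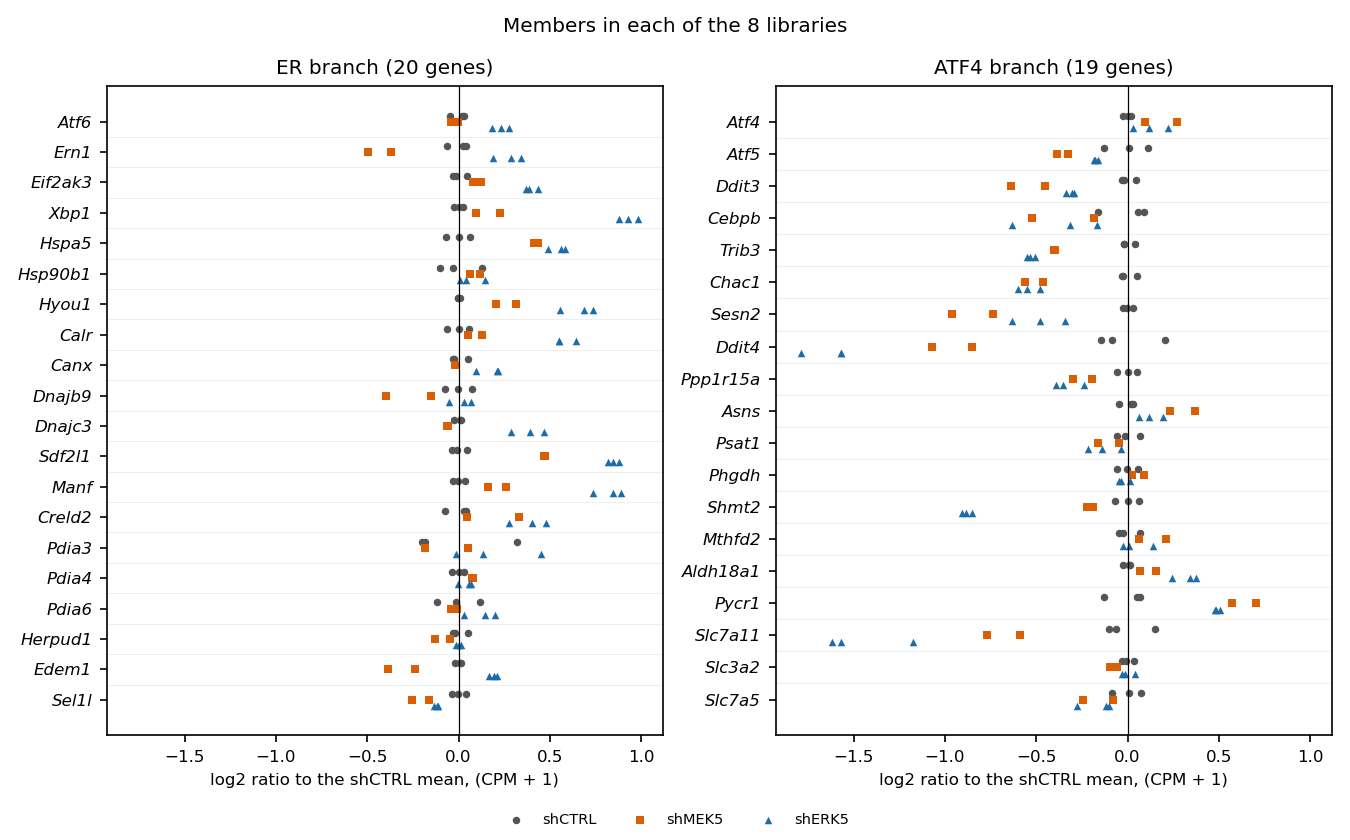
Each point is 1 library, plotted as the log2 ratio of its value (CPM + 1) to the shCTRL mean of that gene, for the 20 ER branch genes (left) and the 19 tested ATF4 branch genes (right); symbols give the group. The 3 shERK5 libraries of Xbp1, Hyou1, Calr, Sdf2l1 and Manf lie to the right of all others, and those of Ddit4, Slc7a11 and Shmt2 to the left.

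Among the 10 chaperones and folding factors, 8 rose in shERK5 and 4 rose and 1 fell in shMEK5. Of all tested genes, 32.0% were called up in shERK5, and 23.1% up and 25.6% down in shMEK5. Hspa5 encodes BiP, the HSP70 of the ER lumen, which also binds the sensors and keeps them inactive. It was at 2472, 2598 and 2712 CPM in shCTRL, 3451 and 3501 in shMEK5 and 3645, 3824 and 3887 in shERK5. Both knockdowns lay above every shCTRL library, at 134% of the shCTRL mean in shMEK5 (0.42 ± 0.05, adjusted p = 8.90e-05) and 146% in shERK5 (0.55 ± 0.05, adjusted p = 3.89e-06). Between the knockdowns the difference was 0.12 ± 0.05 (adjusted p = 0.0798).

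Sdf2l1, a cofactor that keeps BiP clients soluble together with an ER J-protein, followed the same order with wider steps. Its values were 27.2, 28.8 and 27.7 CPM in shCTRL, 39.0 and 39.1 in shMEK5 and 52.2, 49.9 and 50.9 in shERK5. No groups overlapped, and all 3 comparisons passed. The rise was 0.47 ± 0.06 in shMEK5 (adjusted p = 7.60e-05) and 0.85 ± 0.05 in shERK5 (adjusted p = 3.71e-07). Between the knockdowns it was 0.38 ± 0.06 (adjusted p = 4.15e-04). Hyou1, the large HSP70-like protein that exchanges nucleotide on BiP, was at 158, 158 and 159 CPM in shCTRL, 183 and 197 in shMEK5 and 232, 264 and 255 in shERK5. It rose in shERK5 by 0.66 ± 0.05 (adjusted p = 3.72e-06) and was higher there than in shMEK5 by 0.40 ± 0.06 (adjusted p = 5.61e-04). Its smaller rise in shMEK5 (0.26 ± 0.06, adjusted p = 0.00518) was lost without shMEK5 replicate 2 (0.21, adjusted p = 0.0643).

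Manf, a small secreted protein that binds BiP and is released under ER stress, was at 135, 132 and 129 CPM in shCTRL, 148 and 159 in shMEK5 and 220.5, 245 and 238 in shERK5. Its shERK5 libraries stood well clear of the rest (0.82 ± 0.05, adjusted p = 6.57e-07 against shCTRL; 0.61 ± 0.06, adjusted p = 2.73e-05 against shMEK5). The rise in shMEK5 was smaller (0.21 ± 0.06, adjusted p = 0.0120) and was lost without shMEK5 replicate 2 (0.16, adjusted p = 0.119). Creld2, another ER stress-inducible factor, was at 26.0, 25.8 and 23.9 CPM in shCTRL, 26.1 and 32.0 in shMEK5 and 30.8, 35.5 and 33.7 in shERK5. It rose in shERK5 (0.39 ± 0.08, adjusted p = 0.00199). In shMEK5 its 2 libraries differed from each other and the test was not passed (0.19 ± 0.09, adjusted p = 0.110). It was passed without shMEK5 replicate 1 (0.33, adjusted p = 0.0247), and without shMEK5 replicate 2 the value was 0.05.

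The lectin chaperones, which retain glycoproteins until they fold, rose in shERK5 and were not called in shMEK5. Calr, the soluble lectin calreticulin, was at 253, 275 and 265 CPM in shCTRL, 274 and 289 in shMEK5 and 387, 387 and 413 in shERK5. The shMEK5 and shCTRL values overlapped (0.09 ± 0.06, adjusted p = 0.197). In shERK5 it was higher than shCTRL by 0.58 ± 0.05 (adjusted p = 4.44e-06) and than shMEK5 by 0.49 ± 0.06 (adjusted p = 7.65e-05). Canx, its membrane-bound relative calnexin, was at 1092, 1096 and 1158 CPM in shCTRL, 1106 and 1099.7 in shMEK5 and 1294, 1192 and 1291 in shERK5. Its rise in shERK5 was smaller (0.17 ± 0.05, adjusted p = 0.00727). The difference between the knockdowns (0.19 ± 0.05, adjusted p = 0.0141) did not pass once either shMEK5 library or shERK5 replicate 3 was left out (adjusted p from 0.0595 to 0.0754).

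Dnajc3, a J-protein of the lumen also known as p58IPK, was at 102, 99.5 and 102 CPM in shCTRL, 97.0 and 96.9 in shMEK5 and 140.1, 124 and 133 in shERK5. It rose in shERK5 (0.38 ± 0.05, adjusted p = 9.75e-05) and was not called in shMEK5 (-0.06 ± 0.06, adjusted p = 0.400). Dnajb9, a J-protein linked to IRE1 and to degradation, had low values of 8.84, 7.91 and 8.34 CPM in shCTRL, 7.44 and 6.10 in shMEK5 and 8.56, 8.02 and 8.82 in shERK5. It was lowest in the shMEK5 libraries (-0.27 ± 0.09, adjusted p = 0.0335) and did not differ detectably in shERK5 (0.02 ± 0.08, adjusted p = 0.877). The shMEK5 call was lost when shMEK5 replicate 2 (-0.15, adjusted p = 0.311) or shCTRL replicate 1 or 3 was left out, with DESeq2 and with no filter on low values. Its difference between the knockdowns (0.29 ± 0.09, adjusted p = 0.0316) was lost in 5 settings, among them without shMEK5 replicate 2 (0.16, adjusted p = 0.275).

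Hsp90b1, the HSP90 of the ER (GRP94), stood outside this rise. Its values were 564, 481 and 506 CPM in shCTRL, 541 and 560.3 in shMEK5 and 573, 520.3 and 531 in shERK5. They overlapped in every comparison, and the shERK5 test was not passed (0.07 ± 0.06, adjusted p = 0.357). The promoter matches printed above are spread over both outcomes. Of the 7 genes with an ERSE, 5 rose in shERK5 (Hspa5, Calr, Canx, Creld2 and Dnajc3) and 2 were not called (Hsp90b1 and Pdia6), beside the 32.0% of all tested genes called up. In shMEK5, 1 of the 7 rose and 6 were not called (23.1% of all tested genes up), and between the knockdowns 3 were higher in shERK5 and 4 were not called (22.0%). The whole ER branch, which includes these 7, had 13 of 20 up in shERK5 and 5 of 20 up in shMEK5. Between the knockdowns 12 of the 20 were higher in shERK5. Sdf2l1, Xbp1, Ern1, Eif2ak3 and Edem1 also rose in shERK5 and have no exact match in their windows. Atf6, Hyou1 and Manf rose there too, but their promoters were not searched.

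The 3 disulfide isomerases, which make and rearrange the disulfide bonds of folding proteins, gave no call in any comparison. Pdia4 was at 228, 224 and 218 CPM in shCTRL, 235 and 236 in shMEK5 and 223, 232 and 234 in shERK5. Pdia6 was at 304, 277 and 258 CPM in shCTRL, 271 and 278 in shMEK5 and 286, 322 and 309.8 in shERK5. Pdia3, which works with the lectin chaperones, varied within every group, with 199, 139.8 and 138 CPM in shCTRL, 139.5 and 165 in shMEK5 and 157, 217 and 174 in shERK5. Its standard error (0.21 ± 0.17 in shERK5) was wider than for the other ER branch members. Pdia6 passed in shERK5 when replicate 1 of shCTRL or of shERK5 was left out (adjusted p of 0.0202 and 0.0324).

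The 3 members of ER-associated degradation, which extracts misfolded proteins for the proteasome, gave 3 different patterns. Edem1, which marks misfolded glycoproteins for removal, was at 141, 137 and 140.4 CPM in shCTRL, 118 and 107 in shMEK5 and 159.8, 157 and 161 in shERK5. Like Ern1 it was lowest in shMEK5 and highest in shERK5 with no overlap. It fell in shMEK5 (-0.31 ± 0.05, adjusted p = 8.85e-04) and rose in shERK5 (0.19 ± 0.05, adjusted p = 0.00555). The knockdowns differed by 0.50 ± 0.05 (adjusted p = 5.53e-05). Sel1l, the adaptor of the HRD1 ubiquitin ligase, was at 187, 176 and 181 CPM in shCTRL, 162 and 152 in shMEK5 and 167, 165 and 167 in shERK5. Both knockdowns lay below every shCTRL library. Its fall in shMEK5 (-0.21 ± 0.05, adjusted p = 0.00611) was lost without shMEK5 replicate 2 (-0.16, adjusted p = 0.0781). The fall in shERK5 (-0.12 ± 0.04, adjusted p = 0.0335) was lost without shCTRL replicate 1 or 3 or any 1 shERK5 library (adjusted p of 0.0522 to 0.0884). Herpud1, a scaffold of the same complex that carries both an ERSE-II and an amino acid response element, was at 123, 131 and 124 CPM in shCTRL, 115 and 122 in shMEK5 and 127, 126 and 125 in shERK5. It was called in no comparison.

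**Figure D3:**
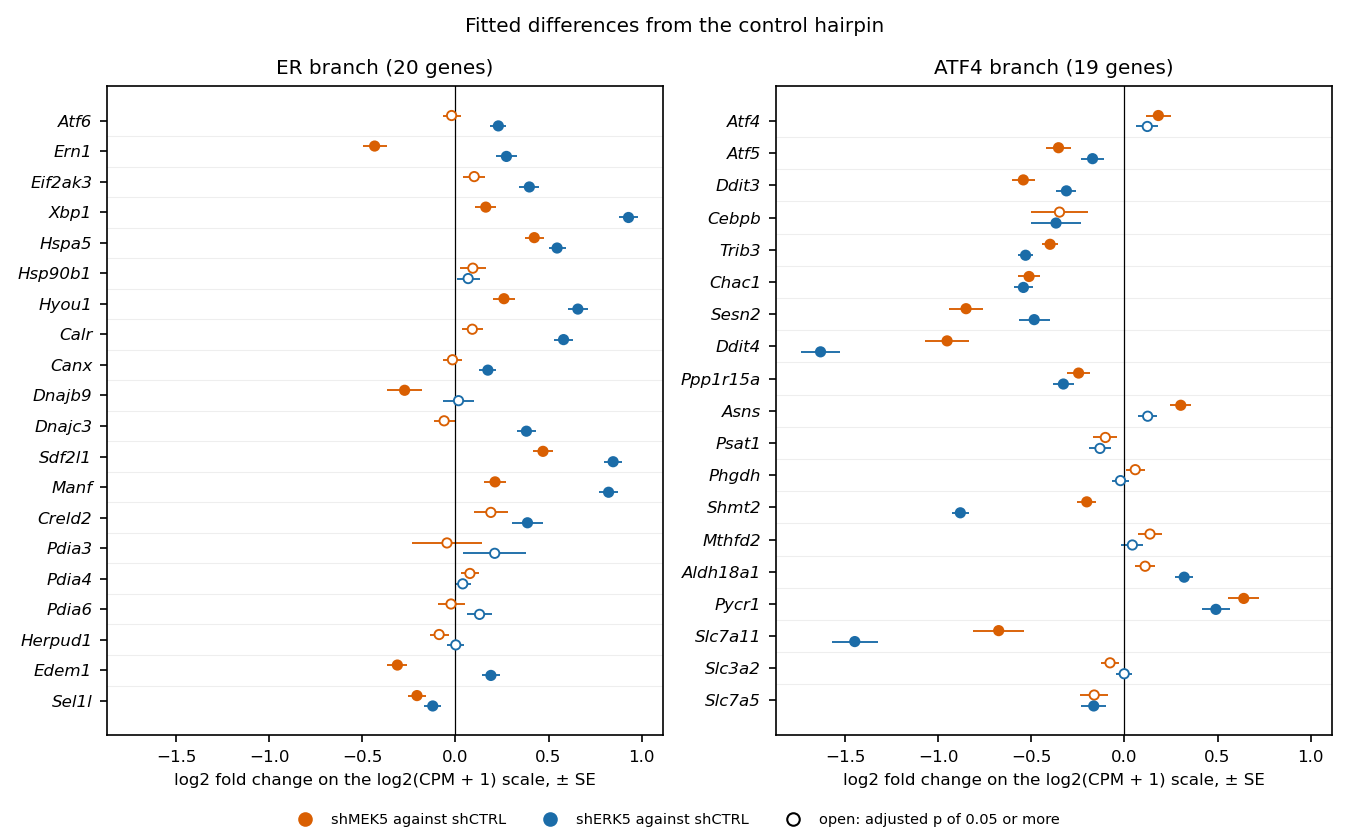
Log2 fold change against shCTRL on the log2(CPM + 1) scale with its standard error, for the ER branch (left) and the ATF4 branch (right); orange is shMEK5, blue is shERK5, and open points did not pass the test. In the ER branch 13 blue points are called above 0, and Ern1 and Edem1 have called points on both sides of 0.

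Beyond the members, 33 other ER folding and degradation genes and 24 genes of the translocon, signal peptidase and glycan transfer machinery were listed by function. Of the 32 tested folding and degradation genes, shERK5 had 18 up and 7 down and shMEK5 had 7 up and 8 down. The shares over all tested genes were 32.0% up and 31.3% down in shERK5, and 23.1% and 25.6% in shMEK5. In shMEK5 the list was near those shares. Between the knockdowns, 14 of the 32 were higher and 1 lower in shERK5, beside 22.0% and 17.4% of all tested genes. Dnajb11, the J-protein that delivers clients to BiP, rose by 0.61 ± 0.05 in shERK5 (adjusted p = 5.64e-06), and Derl2, a derlin of the degradation machinery, by 0.56 ± 0.05 (adjusted p = 8.76e-06). Sil1, a nucleotide exchange factor of BiP, and Fkbp11, a prolyl isomerase, rose in both knockdowns. The rise of Sil1 was 0.59 ± 0.06 in shMEK5 and 0.79 ± 0.05 in shERK5, and that of Fkbp11 was 0.81 ± 0.07 and 0.68 ± 0.06. P4hb, the founding protein disulfide isomerase, was called in both directions, like Ern1 and Edem1. It was at 636, 619 and 593 CPM in shCTRL, 464 and 486 in shMEK5 and 773, 864 and 824 in shERK5. The fold changes were -0.37 ± 0.06, adjusted p = 4.22e-04 in shMEK5, 0.41 ± 0.05, adjusted p = 5.98e-05 in shERK5 and 0.78 ± 0.06, adjusted p = 4.88e-06 between them.

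Of the 24 translocon and signal peptide genes, shERK5 had 18 up and 1 down and shMEK5 had 6 up and 2 down. All tested genes gave 32.0% up and 31.3% down in shERK5, and 23.1% and 25.6% in shMEK5. The share up in shMEK5 was thus near that of all genes. Set against shMEK5, shERK5 had 17 of the 24 higher and 0 lower, beside 22.0% and 17.4% of all tested genes. The median log2 fold change of the 24 was 0.33 in shERK5 and 0.07 in shMEK5. Sec11c, a catalytic subunit of signal peptidase, had values of 60.8, 60.0 and 59.7 CPM in shCTRL, 67.0 and 66.8 in shMEK5 and 113, 117 and 119 in shERK5. Its adjusted p was the smallest of the list in shERK5 (0.94 ± 0.04, adjusted p = 1.35e-07). Rpn1, a subunit of the oligosaccharyltransferase, rose by 0.61 ± 0.05 (adjusted p = 2.59e-06) and Sec61a1, the pore of the translocon, by 0.57 ± 0.05 (adjusted p = 5.44e-06). Sec61b, a small subunit of that pore, was low in both shMEK5 libraries, at 34.3, 33.4 and 30.8 CPM in shCTRL, 19.6 and 20.7 in shMEK5 and 32.5, 31.2 and 31.8 in shERK5. It fell in shMEK5 (-0.68 ± 0.07, adjusted p = 2.13e-05) and was higher in shERK5 than in shMEK5 (0.63 ± 0.07, adjusted p = 4.30e-05).

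In the ATF4 branch, more genes fell than rose in both knockdowns. Of its 20 members 19 were tested. Vldlr, a lipoprotein receptor induced by ATF4, had 1 read in each shMEK5 library and 0 in the other 6 libraries. A count of 0 allows up to 3 reads (0.0559 to 0.0725 CPM, counting error only). In shERK5, 11 fell, 2 rose and 6 did not pass, with a median of -0.17. In shMEK5, 9 fell, 3 rose and 7 did not pass, with a median of -0.20. The count of 11 in shERK5 fell to 8 without shCTRL replicate 2 or 3, without shERK5 replicate 3, and with no filter on low values. Calls in shMEK5 that were lost without 1 library are given with each gene below. Of all tested genes, 31.3% were called down and 32.0% up in shERK5, and 25.6% down and 23.1% up in shMEK5. Between the knockdowns, 3 were higher and 5 lower in shERK5 and 11 were not called, with a median of -0.06. Beside them, 22.0% of all tested genes were higher and 17.4% lower in shERK5. The count of 3 fell to 1 without shMEK5 replicate 1, and the count of 5 fell to 3 without shMEK5 replicate 2, shERK5 replicate 1 or shERK5 replicate 3. The 2 that rose in shERK5 became 4 without shERK5 replicate 1.

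Atf4 itself was not among the genes that fell. Its values were 964, 976 and 945 CPM in shCTRL, 1028 and 1158 in shMEK5 and 982, 1120.2 and 1042 in shERK5. Both knockdowns lay above the highest shCTRL library, with 0.18 ± 0.07, adjusted p = 0.0405 in shMEK5 and 0.12 ± 0.06, adjusted p = 0.0896 in shERK5. The shMEK5 call was lost without shMEK5 replicate 2 (0.10, adjusted p = 0.356) and in 5 other settings, and the shERK5 test was passed without shERK5 replicate 1 (0.17, adjusted p = 0.0251).

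Of the 3 other transcription factors of the branch, Ddit3 and Atf5 fell in both knockdowns and Cebpb fell in shERK5. Ddit3, the gene of CHOP, which drives death-related and feedback targets, was at 184, 192 and 182 CPM in shCTRL, 119 and 136 in shMEK5 and 147, 151 and 150.5 in shERK5. No groups overlapped. It fell in shMEK5 (-0.54 ± 0.06, adjusted p = 5.13e-05) and less in shERK5 (-0.31 ± 0.05, adjusted p = 5.34e-04). The difference between the knockdowns was 0.23 ± 0.06 (adjusted p = 0.0112) and was lost without shMEK5 replicate 1 (0.14, adjusted p = 0.153). Atf5, a relative of ATF4 with the same kind of translational control, was at 57.3, 63.0 and 67.7 CPM in shCTRL, 49.8 and 47.6 in shMEK5 and 56.0, 55.2 and 55.0 in shERK5. It fell in shMEK5 (-0.35 ± 0.07, adjusted p = 0.00178). Its smaller fall in shERK5 (-0.17 ± 0.06, adjusted p = 0.0308) was lost without shCTRL replicate 2 or 3, without shERK5 replicate 2 or 3, and with no filter on low values (adjusted p of 0.052 to 0.129). Cebpb, a C/EBP partner of ATF4, was spread widely, at 107, 128 and 125 CPM in shCTRL, 106 and 83.1 in shMEK5 and 107, 77.0 and 96.0 in shERK5. It was called in shERK5 (-0.37 ± 0.14, adjusted p = 0.0429), and the same 5 settings ended that call (adjusted p of 0.0589 to 0.111). In shMEK5 the test was not passed (-0.35 ± 0.15, adjusted p = 0.0906), but it was with DESeq2, in a fit of the 2 groups alone and without shERK5 replicate 2 (adjusted p of 0.0299 to 0.0466). Leaving out 1 library moved the shMEK5 value between -0.52 (without shMEK5 replicate 1) and -0.18 (without shMEK5 replicate 2).

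All 5 feedback and stress effectors fell in both knockdowns, which were set against the same shCTRL libraries. Of all tested genes, 25.6% were called down in shMEK5 and 31.3% in shERK5. Ddit4, the gene of REDD1, which restrains mTORC1 signalling, was at 54.4, 44.4 and 42.5 CPM in shCTRL, 25.7 and 21.9 in shMEK5 and 15.2, 15.2 and 12.9 in shERK5. The 3 groups did not overlap. In shMEK5 it was at 50.5% of the shCTRL mean (-0.95 ± 0.12, adjusted p = 1.32e-04). In shERK5 it was at 30.7% (-1.63 ± 0.10, adjusted p = 1.17e-06), the largest fitted fall among the 5 effectors in this comparison. It was also lower in shERK5 than in shMEK5 (-0.68 ± 0.12, adjusted p = 0.00135).

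Sesn2, a sestrin that restrains mTORC1 when leucine is scarce, was at 29.6, 28.4 and 28.8 CPM in shCTRL, 16.9 and 14.3 in shMEK5 and 22.6, 20.5 and 18.3 in shERK5. Unlike Ddit4 it was lower in shMEK5 (-0.85 ± 0.09, adjusted p = 4.95e-05) than in shERK5 (-0.48 ± 0.08, adjusted p = 5.39e-04). That difference of 0.37 ± 0.09 (adjusted p = 0.0103) was lost without shMEK5 replicate 2 (0.25, adjusted p = 0.111). Chac1, which degrades glutathione, was at 106, 107 and 112 CPM in shCTRL, 78.2 and 73.1 in shMEK5 and 77.4, 71.0 and 73.7 in shERK5. The knockdowns overlapped each other and were below shCTRL (-0.51 ± 0.06, adjusted p = 5.47e-05 in shMEK5; -0.54 ± 0.05, adjusted p = 8.95e-06 in shERK5).

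Trib3, a pseudokinase that feeds back on ATF4, was at 528, 551 and 528 CPM in shCTRL, 405 and 407 in shMEK5 and 366, 377 and 369 in shERK5. Spread was narrow in every group. It fell in shMEK5 (-0.40 ± 0.04, adjusted p = 5.47e-05) and in shERK5 (-0.53 ± 0.04, adjusted p = 2.07e-06). The small step between the knockdowns (-0.13 ± 0.04, adjusted p = 0.0380) was lost without shCTRL replicate 3 or any 1 knockdown library (adjusted p of 0.0528 to 0.152). Ppp1r15a, the gene of GADD34, which guides a phosphatase to eIF2 and so ends the response, was at 156, 149.8 and 144 CPM in shCTRL, 122 and 131 in shMEK5 and 114, 127 and 117 in shERK5. Both knockdowns were below shCTRL (-0.25 ± 0.06, adjusted p = 0.00754 in shMEK5; -0.33 ± 0.06, adjusted p = 4.53e-04 in shERK5). Its shMEK5 call was lost without shMEK5 replicate 1 (-0.20, adjusted p = 0.0784).

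**Figure D4:**
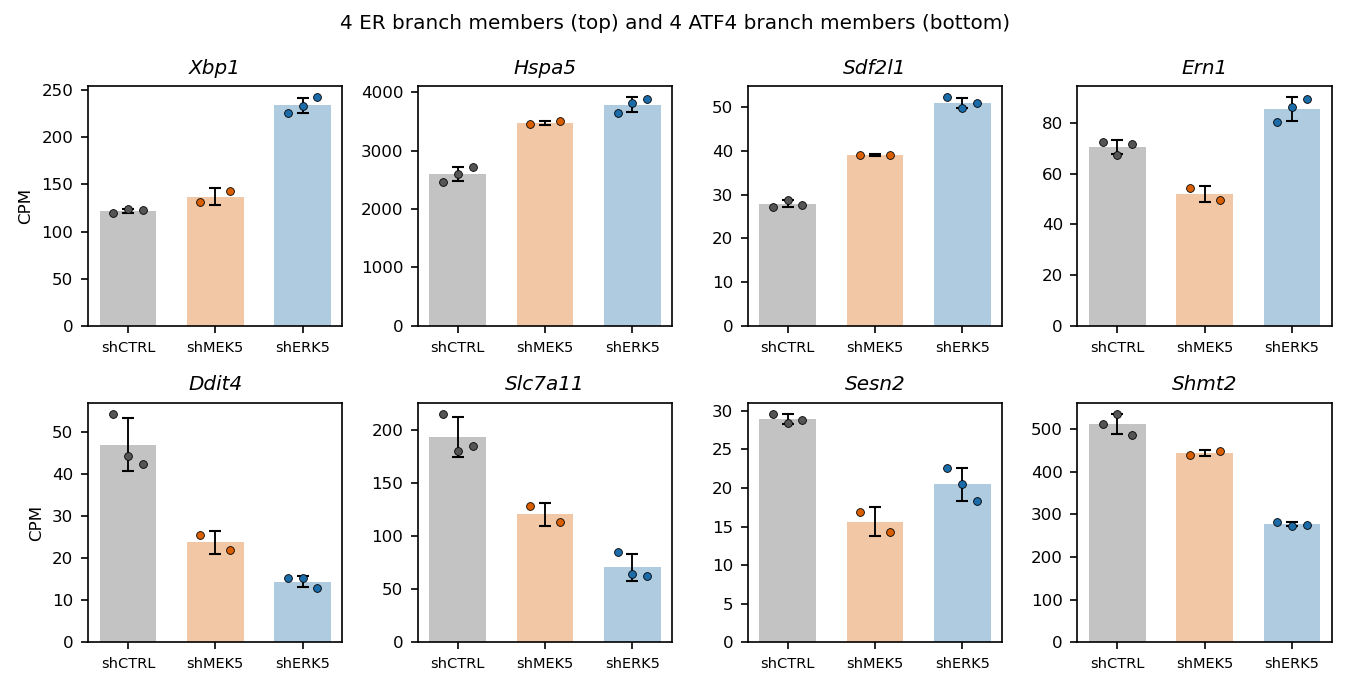
CPM of 4 ER branch members (top) and 4 ATF4 branch members (bottom) by group; bars are means, error bars are SD (n = 3, 2 and 3) and points are libraries. Xbp1 is at 191% of the shCTRL mean in shERK5, Ern1 lies below shCTRL in shMEK5 and above it in shERK5, and Ddit4, Slc7a11 and Shmt2 step down from shCTRL through shMEK5 to shERK5.

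The 7 enzymes of amino acid and one-carbon metabolism moved in different directions. Shmt2, the mitochondrial enzyme that turns serine into glycine and a one-carbon unit, was at 513, 535 and 487 CPM in shCTRL, 439 and 449 in shMEK5 and 283, 272 and 276 in shERK5. The 3 shERK5 libraries were at 54.2% of the shCTRL mean (-0.88 ± 0.05, adjusted p = 2.17e-07). They were also lower than shMEK5 (-0.68 ± 0.05, adjusted p = 6.00e-06). The fall in shMEK5 (-0.20 ± 0.05, adjusted p = 0.00793) was lost without shMEK5 replicate 1 (-0.19, adjusted p = 0.0606).

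The 3 members next to it on the pathway were not called. Phgdh, the first enzyme of serine synthesis, was at 357, 372 and 344 CPM in shCTRL, 364 and 380.2 in shMEK5 and 347, 361 and 349 in shERK5. Psat1, which follows it, was at 569.9, 539 and 523 CPM in shCTRL, 487 and 527 in shMEK5 and 468, 529.6 and 493 in shERK5. Mthfd2, which takes the one-carbon unit onward in mitochondria, was at 351, 329 and 324 CPM in shCTRL, 349 and 387 in shMEK5 and 329, 369 and 336 in shERK5. None of these 3 was called in any comparison by limma, and for each the knockdown values overlapped those of shCTRL. Psat1 passed in shERK5 with TMM scaling (-0.15, adjusted p = 0.0387) and without shERK5 replicate 2 (-0.18, adjusted p = 0.0220).

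The 2 enzymes of proline synthesis from glutamate rose in shERK5, and Pycr1 also rose in shMEK5. Pycr1, which catalyses the last step, was at 9.30, 10.7 and 10.8 CPM in shCTRL, 17.3 and 15.8 in shMEK5 and 14.7, 15.0 and 14.7 in shERK5. Every knockdown library was above every shCTRL library (0.64 ± 0.08, adjusted p = 1.31e-04 in shMEK5; 0.49 ± 0.07, adjusted p = 2.10e-04 in shERK5). Aldh18a1, which catalyses the first, was at 373, 372 and 363 CPM in shCTRL, 388 and 411 in shMEK5 and 438, 480.2 and 469 in shERK5. It rose in shERK5 (0.32 ± 0.05, adjusted p = 2.07e-04) but was not called in shMEK5 (0.11 ± 0.05, adjusted p = 0.109). The difference between the knockdowns (0.21 ± 0.05, adjusted p = 0.0102) was lost without shMEK5 replicate 1 (0.17, adjusted p = 0.110). Asns, asparagine synthetase, was at 1020.5, 1025 and 972 CPM in shCTRL, 1182 and 1300.4 in shMEK5 and 1051, 1150.3 and 1090.2 in shERK5. It rose in shMEK5 (0.30 ± 0.06, adjusted p = 0.00160). In shERK5 it did not pass (0.12 ± 0.05, adjusted p = 0.0545) but did so in 5 other settings, among them a fit of the 2 groups alone (0.12, adjusted p = 0.0478). Its step down from shMEK5 to shERK5 (-0.18 ± 0.06, adjusted p = 0.0314) was lost in 5 settings, among them without shMEK5 replicate 2 (-0.11, adjusted p = 0.265).

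Of the 3 amino acid transporter members, 1 moved strongly. Slc7a11, the cystine-glutamate exchanger xCT, was at 215, 181 and 185 CPM in shCTRL, 128 and 113 in shMEK5 and 85.2, 64.6 and 62.5 in shERK5. The groups did not overlap, with shMEK5 at 62.4% of the shCTRL mean (-0.68 ± 0.14, adjusted p = 0.00402) and shERK5 at 36.6% (-1.45 ± 0.12, adjusted p = 1.92e-05). Set against shMEK5, shERK5 was lower (-0.77 ± 0.14, adjusted p = 0.00257). Slc3a2, the heavy chain that partners both Slc7a11 and Slc7a5 at the membrane, was at 343, 359 and 349 CPM in shCTRL, 328 and 336 in shMEK5 and 342, 360.1 and 347 in shERK5. No comparison of it passed. Slc7a5, the large neutral amino acid transporter LAT1, was at 203, 226 and 217 CPM in shCTRL, 203 and 181 in shMEK5 and 201, 177 and 198 in shERK5. It was just past the threshold in shERK5 (-0.16 ± 0.07, adjusted p = 0.0493), a call lost in 10 of 17 alternative settings, with edgeR (-0.17, adjusted p = 0.0617) and DESeq2 (-0.17, adjusted p = 0.0519) among them.

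Genes with the amino acid response element were found on both sides. Of the 5 tested ATF4 branch genes that hold it, Chac1, Slc7a11 and Trib3 fell in both knockdowns, Pycr1 rose in both, and Asns rose in shMEK5. The 2 matches in Slc7a11 lie 66 and 47 bases before the start site (-66 and -47), on opposite strands. The RefSeq start site used for Slc7a11 lies inside the span of the gene (chr3:50364936-50499087) and not at its outer end, as does the Vldlr start site whose window holds the match. The start sites used for Edem1, Mthfd2 and Slc3a2 also lie inside the gene. Their windows held no match, and the outer ends of these genes were not searched.

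Other genes around ATF4, listed by function, were also mixed. Of 17 tested partners and stress targets, shERK5 had 8 down and 3 up, and shMEK5 had 7 down and 4 up. The shares over all tested genes were 31.3% down and 32.0% up in shERK5, and 25.6% and 23.1% in shMEK5. Pck2, the mitochondrial phosphoenolpyruvate carboxykinase, was at 211, 183 and 164 CPM in shCTRL, 108 and 114 in shMEK5 and 81.6, 84.5 and 72.4 in shERK5. It fell in both (-0.74 ± 0.10, adjusted p = 3.59e-04 in shMEK5; -1.21 ± 0.09, adjusted p = 4.65e-06 in shERK5). Cth, which makes cysteine from cystathionine, also fell in both (-0.58 ± 0.05, adjusted p = 1.13e-05 in shMEK5; -0.57 ± 0.04, adjusted p = 2.65e-06 in shERK5). Nfe2l2, the gene of NRF2, which also drives Slc7a11, was at 201, 210.2 and 218 CPM in shCTRL, 185 and 189 in shMEK5 and 144, 146 and 155 in shERK5. It fell in shERK5 (-0.49 ± 0.05, adjusted p = 1.16e-05). Sqstm1, an autophagy receptor, fell in shMEK5 (-0.59 ± 0.04, adjusted p = 3.88e-06) and in shERK5 (-0.28 ± 0.04, adjusted p = 1.28e-04), with a difference between them of 0.31 ± 0.04 (adjusted p = 3.43e-04).

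Of the 21 cytosolic genes of tRNA charging and export, shERK5 had 7 up and 8 down and shMEK5 had 7 up and 5 down. In shERK5 the shares were near those of all tested genes (32.0% up and 31.3% down). The all-gene shares in shMEK5 were 23.1% up and 25.6% down. Nars, for asparagine, was at 623, 588 and 577 CPM in shCTRL, 459.5 and 490.0 in shMEK5 and 331, 356 and 335 in shERK5. It fell in both (-0.33 ± 0.06, adjusted p = 7.97e-04 in shMEK5; -0.80 ± 0.05, adjusted p = 5.54e-07 in shERK5). Qars, for glutamine, was at 263, 241 and 225 CPM in shCTRL, 122 and 127 in shMEK5 and 127, 142 and 128 in shERK5. It fell in both (-0.96 ± 0.07, adjusted p = 4.72e-06 in shMEK5; -0.87 ± 0.07, adjusted p = 2.12e-06 in shERK5). Farsb, a subunit of the phenylalanine enzyme, rose in both (0.36 ± 0.07 and 0.54 ± 0.06). Of 10 tested genes of serine, glycine and one-carbon metabolism outside the members, shERK5 had 7 down and 2 up and shMEK5 had 5 down and 3 up. Beside them, 31.3% of all tested genes were down and 32.0% up in shERK5, and 25.6% and 23.1% in shMEK5. Psph, the last enzyme of serine synthesis, fell in both (-0.37 ± 0.07, adjusted p = 0.00181 in shMEK5; -0.43 ± 0.06, adjusted p = 1.90e-04 in shERK5).

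Of 9 tested amino acid transporters outside the members, shMEK5 had 0 up and 3 down, and shERK5 had 2 up and 3 down. All tested genes gave 23.1% up and 25.6% down in shMEK5, and 32.0% and 31.3% in shERK5. The share of these transporters down in shERK5 was near that of all genes. Slc1a4, a carrier of serine and alanine, was at 219, 240.2 and 230.4 CPM in shCTRL, 145 and 140.4 in shMEK5 and 188, 178 and 186 in shERK5. It fell in both (-0.69 ± 0.05, adjusted p = 5.28e-06 in shMEK5; -0.32 ± 0.05, adjusted p = 2.11e-04 in shERK5). Slc6a9, a glycine carrier, did so too (-0.75 ± 0.08 and -0.62 ± 0.07). Of the 11 genes for eIF2 kinases, phosphatase parts and the exchange factor, shERK5 had 3 up and 2 down and shMEK5 had 3 up and 3 down. These shares were near or below those of all tested genes (32.0% up and 31.3% down in shERK5; 23.1% and 25.6% in shMEK5). Eif2ak4, the gene of GCN2, the kinase that senses uncharged tRNA, rose slightly in shERK5 (0.24 ± 0.05, adjusted p = 0.00134), and Eif2ak2, the gene of PKR, rose in shMEK5 (0.33 ± 0.09, adjusted p = 0.0111). Ppp1ca, a catalytic subunit of the phosphatase that GADD34 guides, fell in shMEK5 (-0.44 ± 0.05, adjusted p = 6.24e-05).

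**Figure D5:**
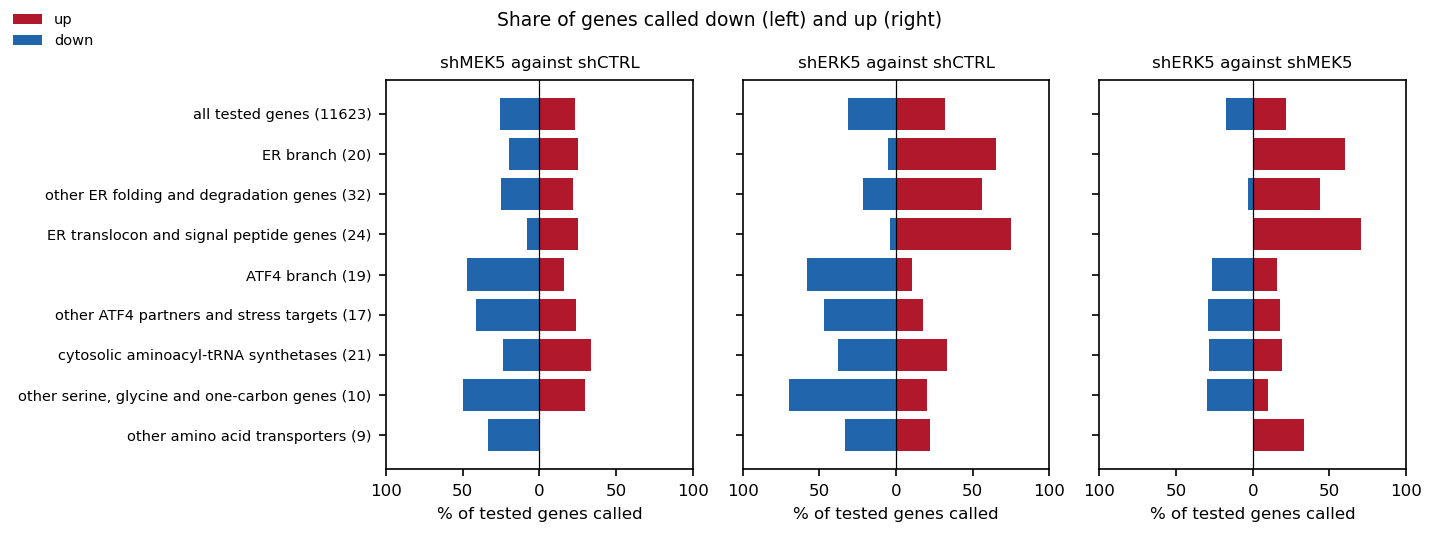
Share of tested genes called up (red, to the right) and called down (blue, to the left) in each comparison, for all tested genes, both branches and 6 other lists of the same pathways; numbers in brackets are the genes tested. In shERK5 the 3 ER lists extend to the right (13 of 20, 18 of 32 and 18 of 24), and the ATF4 branch extends to the left in both knockdowns (9 and 11 of 19).

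The counting method sets 1 limit on single genes. In the GENCODE annotation of GRCm38, 8 members overlap a protein-coding gene: Manf, Pdia3, Pdia6, Atf5, Cebpb, Ppp1r15a, Shmt2 and Slc7a5. Ddit3 was not matched to it and was not checked there. By RefSeq coordinates, Ddit3 (chr10:127290793-127296291) overlaps Mars1 (chr10:127296221-127311786), which is in the list of tRNA charging genes. The library kit keeps strand, per the labels, but whether counting used it was not given in the sources used here. Without strand, reads of such genes and their neighbours cannot be told apart. Manf also overlaps Rbm15b on the same strand, and there strand would not separate the reads either.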

How the data were processed

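Total RNA of 4T1 cells was depleted of ribosomal RNA and made into strand-specific libraries, per the labels' protocols. Per the submitters' processing notes, STAR and mm10 were used; which annotation and counting program, and whether strand was used, was not given in the sources used here. Values were deposited as CPM, computed by the authors over 24454 genes. Each value was a whole number of reads within 0.01 read (100% of values), 1 read being 0.0186 to 0.0242 CPM, so reads could be recovered. The 11623 genes that reached a CPM of 1 in 2 or more libraries were fitted with limma 3.58.1 in R 4.3.3, with trend and robust moderation, on log2(CPM + 1), which understates the changes of low genes. All 8 libraries entered 1 fit with a mean per group; p-values were adjusted over all tested genes by Benjamini-Hochberg. The step was also run on simulated counts in which a small share of genes was changed. A far larger share was called here, so that run does not measure the error rate of these calls.

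The alternatives were edgeR 4.0.16 (quasi-likelihood) and DESeq2 1.42.0 on the recovered reads, TMM and RLE scaling, another pseudocount, 2 other filters, a fit of 2 groups only, a replicate block and leaving out each library. The members and lists were chosen with earlier results of these data known, so they received no test as lists. Named were all 40 members, both hairpin targets and, from each other list and comparison, up to 4 called genes with the smallest adjusted p. Names, coordinates and promoters came from RefSeq tables of GRCm38.p6, joined by Entrez number, and overlaps from GENCODE, except that of Ddit3. Replicates differed by more than counting noise (chi-square per degree of freedom of 8.22 to 42.5), so none was counted as a duplicate. A protein sequence comparison planned at the start was not made.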

Additional observations from a re-analysis of the deposited data

How the results depend on the processing

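No called result changed direction under any of the 17 alternatives, all planned. Of the member values, 1900 kept their side of the threshold, 67 lost it and 22 gained it; the calls kept in all 17 were 13 of 21 in shMEK5, 23 of 27 in shERK5 and 13 of 20 between the knockdowns. Leaving out 1 library gave 2 to 6 ER branch genes up and 2 to 4 down in shMEK5, 0 to 1 down in shERK5, 2 to 4 ATF4 branch genes up in shERK5, and 1 to 4 up and 3 to 5 down between the knockdowns. It also gave 1583 to 2712 of all genes up and 1281 to 2178 down between the knockdowns, both lowest without shMEK5 replicate 1. These fits have fewer libraries; without a shMEK5 library the other is assumed to vary like the other groups. TMM and RLE scaling moved the median of all genes by at most 0.03 (log2). Vldlr was the 1 member not detectable above the limit of 3 reads.

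Same-numbered libraries of different groups had correlations of deviations from -0.19 to 0.52, and other pairs from -0.52 to 0.40. With 2 shMEK5 libraries, their deviations from the group mean mirror each other. The check therefore cannot decide whether the numbers pair the samples. With the replicate block, 4 ATF4 branch genes were called up in shERK5 (2 without it), Atf4 (adjusted p = 0.0367) and Asns (0.0264) being gained, and Slc7a5 was lost (0.0673); the other counts of members and of all genes stayed within 1.5 times, and the cause was not tested.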

Other observations

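Chaperones outside the ER, which answer to other stress programs, were listed for comparison. Of all tested genes, 23.1% were called up and 25.6% down in shMEK5, and 32.0% up and 31.3% down in shERK5. Of 12 tested cytosolic heat shock genes, shMEK5 had 6 down and 1 up, and shERK5 had 6 down and 2 up. Hspa8, the constitutive cytosolic HSP70, was at 823, 735 and 687 CPM in shCTRL, 413 and 407 in shMEK5 and 333, 359 and 343 in shERK5. It was below every shCTRL library in both knockdowns (-0.86 ± 0.07, adjusted p = 7.40e-06 in shMEK5; -1.11 ± 0.06, adjusted p = 3.26e-07 in shERK5), while its ER relative Hspa5 was above every shCTRL library. Hsf1, the factor that drives heat shock genes, fell in shERK5 (-0.48 ± 0.06, adjusted p = 4.35e-05), and Dnaja1, a J-protein partner of HSP70, fell in both (-0.54 ± 0.11 and -0.58 ± 0.10). Hspa4, a nucleotide exchange factor of HSP70, rose in shERK5 (0.32 ± 0.05, adjusted p = 2.14e-04).

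Of 9 tested mitochondrial chaperone and protease genes, shMEK5 had 3 up and 3 down, and shERK5 had 5 up and 2 down. Clpp, the proteolytic subunit of the matrix protease, was at 93.6, 112 and 109 CPM in shCTRL, 133 and 139 in shMEK5 and 155, 155 and 162 in shERK5 (0.38 ± 0.07, adjusted p = 0.00181 in shMEK5; 0.59 ± 0.07, adjusted p = 2.90e-05 in shERK5). Hspd1, the chaperonin HSP60, fell in both (-0.25 ± 0.05 and -0.22 ± 0.05), while its lid Hspe1 rose in shERK5 (0.24 ± 0.05, adjusted p = 0.00225).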
